A study of Mus musculus with 2 samples.

Results

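Among the 13524 genes that the GENCODE M21 mouse annotation calls pseudogenes, 164 had at least 3 long reads in each of 2 adrenal gland libraries, summed over all transcript models, and these are the genes described here. They were chosen by those reads, so their levels are a description and support no test. Of the 10561 genes of any type that met the same minimum, they were 1.55%, and they received 10071 of 824225 gene-assigned reads in replicate 1 (1.22%, Wilson 95% interval 1.20 to 1.25%) and 6942 of 656826 in replicate 2 (1.06%, 1.03 to 1.08%). The mean share was 1.14 ± 0.117% (SD, n = 2), and the members held 94.2% of all pseudogene reads in replicate 1 and 93.5% in replicate 2. Oaz1-ps was left out by the rule and counts neither among the 13524 genes nor among all pseudogene reads. By annotated type, 124 members were processed, 17 transcribed processed, 9 transcribed unprocessed, 7 unprocessed and 4 polymorphic pseudogenes, 2 were of the unspecified type pseudogene and 1 was a transcribed unitary pseudogene.

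The study sequenced total RNA of adrenal glands from male B6CASTF1/J mice, the F1 cross of the B6 and CAST strains, at 2 months of age, as long reads placed on mm10, the assembly of the B6 strain. All samples belong to 1 group of 2 libraries, with no treatment and no control. The labels give both libraries the same donor and number their animals in conflicting ways, so the spread between replicates may be technical, and every p-value compares these libraries only. The 5 cortical marker genes (Cyp11a1, Star, Cyp11b1, Cyp21a1, Nr5a1) summed to 57388 CPM (reads scaled to the library total) in replicate 1 and 60658 in replicate 2, and the 5 chromaffin cell genes to 11251 and 12408, with reads on every gene of both lists. The 4 adipocyte genes (Adipoq, Fabp4, Ucp1, Cfd) summed to 7725 CPM in replicate 1 and 3917 in replicate 2, and the 4 hemoglobin genes to 1930 and 804.

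A processed pseudogene is a copy of a spliced messenger RNA that was reverse transcribed and inserted elsewhere in the genome, so it usually lacks the introns of its parent. An unprocessed pseudogene arose by duplication of genomic DNA and can keep the exon and intron structure. A unitary pseudogene has lost function without leaving an intact copy, and a polymorphic pseudogene is intact in some strains or individuals. Genes that are strongly transcribed in the germ line, such as those for ribosomal proteins and glycolytic enzymes, are known to have left many processed copies in mammalian genomes. A read from a coding messenger RNA and one from a recent copy may differ at few bases or at none, and the sources used here do not say how reads that match several loci were placed. A long read stands for a whole molecule, so reads were not divided by gene length.

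The sequences below show how close the copies with the most reads were to the coding genes. All come from GENCODE M21 transcripts on mm10, with coordinates on the genome, and each stretch lies within the coding sequence of the coding gene. Capitals mark the bases at which pseudogene and coding gene differ. Substitutions are written with the coding gene's base, the position counted from 1 at the 5′ end of the pseudogene transcript, and the pseudogene's base. The first stretch holds T385A, the single difference between the whole transcript of Gm5559 and Gapdh, the gene of a glycolytic enzyme. In that stretch Gm12671 and Gm12033 carry the letters of Gapdh.
Gm5559 (chr5:95862068-95862127, plus strand): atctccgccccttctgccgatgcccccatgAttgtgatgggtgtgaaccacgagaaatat
Gm12671 (chr4:91852256-91852315, minus strand): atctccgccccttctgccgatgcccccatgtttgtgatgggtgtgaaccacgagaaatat
Gm12033 (chr11:20335600-20335659, minus strand): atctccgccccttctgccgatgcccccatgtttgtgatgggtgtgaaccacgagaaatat
Gapdh (chr6:125162948-125163007, minus strand): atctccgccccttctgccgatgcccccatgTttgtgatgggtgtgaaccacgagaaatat

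The second Gapdh stretch holds T504C, the single difference of Gm12033. The Gapdh stretch spans an exon junction, so no coordinates are given for it.
Gm12033 (chr11:20335481-20335540, minus strand): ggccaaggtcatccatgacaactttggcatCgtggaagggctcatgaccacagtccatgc
Gm12671 (chr4:91852137-91852196, minus strand): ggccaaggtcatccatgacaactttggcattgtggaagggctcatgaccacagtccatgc
Gapdh (exon junction): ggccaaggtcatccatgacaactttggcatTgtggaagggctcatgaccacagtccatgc

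The next stretches are the starts or first differences of the members with the most reads of other kinds. Gm15459 differs from Hspa8, the gene of a constitutive chaperone of the Hsp70 class, at G114A, C414T, C549T, G1222A and C1440T, of which the first is shown. Gm10123 was identical to Ppia, the gene of the prolyl isomerase cyclophilin A, over its whole transcript.
Gm15459 (chr5:5783413-5783472, minus strand): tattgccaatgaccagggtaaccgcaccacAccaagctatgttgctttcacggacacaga
Hspa8 (chr9:40802006-40802065, plus strand): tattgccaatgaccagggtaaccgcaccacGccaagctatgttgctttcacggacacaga
Gm10123 (chr9:96895658-96895717, plus strand): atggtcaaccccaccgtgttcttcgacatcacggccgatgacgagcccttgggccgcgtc
Ppia (chr11:6415911-6415970, plus strand): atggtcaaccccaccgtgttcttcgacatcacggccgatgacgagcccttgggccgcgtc

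The last stretches belong to the pseudogenes whose reads are compared with a parent below. Rpl21-ps15 differs from Rpl21, a large ribosomal subunit gene, at T336C, G378A and T432C. Vcp-rs differs from Vcp, the gene of a AAA ATPase that extracts ubiquitinated proteins, at 8 substituted bases and 15 gap bases, and the substitution G570A is shown. Cyp21a2-ps differs from Cyp21a1, the gene of the steroid 21-hydroxylase of the adrenal cortex, at C73T, C92T and further bases outside the stretch shown, and is the unprocessed member with the most reads.
Rpl21-ps15 (chrX:151215285-151215344, minus strand): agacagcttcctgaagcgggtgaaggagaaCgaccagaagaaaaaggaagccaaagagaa
Rpl21 (chr5:146835627-146835686, plus strand): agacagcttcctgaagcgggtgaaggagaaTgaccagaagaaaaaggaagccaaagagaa
Vcp-rs (chrX:104347636-104347695, minus strand): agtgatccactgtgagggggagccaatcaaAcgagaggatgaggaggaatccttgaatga
Vcp (exon junction): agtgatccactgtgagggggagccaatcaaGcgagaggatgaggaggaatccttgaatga
Cyp21a2-ps (chr17:34722151-34722210, minus strand): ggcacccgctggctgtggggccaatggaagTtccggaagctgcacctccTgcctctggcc
Cyp21a1 (chr17:34804298-34804357, minus strand): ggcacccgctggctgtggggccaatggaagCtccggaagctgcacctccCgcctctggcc

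Reads were unevenly spread over the members. The summed reads of a member ranged from 6 to 1913 with a median of 36, and 44 members had 100 or more. The 3 highest members, Gm15459, Gm10123 and Gm12671, held 22.5% of the members' reads in replicate 1 and 26.0% in replicate 2, and the 10 highest held 41.8% and 46.8%. Gm15459 had 967 reads in replicate 1 and 946 in replicate 2, Gm10123 had 824 and 456, and Gm12671 had 476 and 404. Below them stood Rpl3-ps1 with 275 reads in replicate 1 and 226 in replicate 2, and Gm10698, a copy of the vesicle cargo receptor gene Tmed2, with 266 and 209. The processed type held 8741 of the members' reads in replicate 1 (86.8%) and 5962 in replicate 2 (85.9%), with a median level of 24.8 CPM. The 17 transcribed processed members had a median of 28.0 CPM, the 9 transcribed unprocessed members 8.36 CPM, the 7 unprocessed members 30.1 CPM and the 4 polymorphic members 9.20 CPM. Levels within a type spread widely, and those of processed members ran from 4.10 to 1307 CPM.

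**Figure D1:**
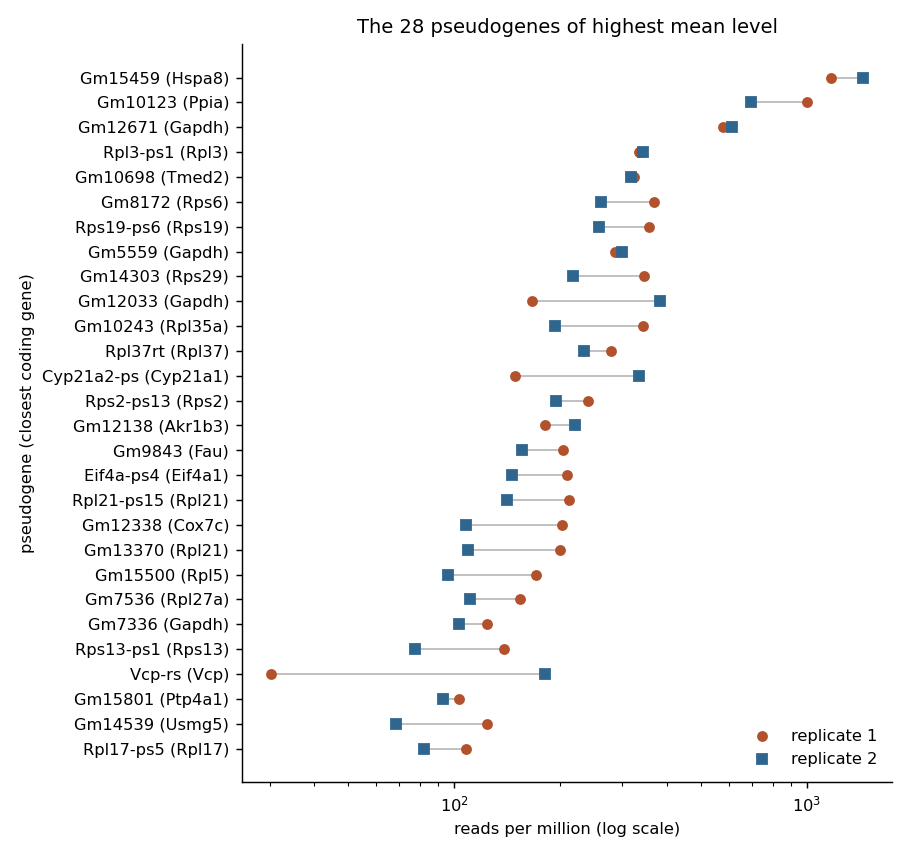
Levels of the 28 members with the highest mean, in reads per library total (CPM) on a log axis, with a circle for replicate 1 and a square for replicate 2, and the closest coding gene in brackets. Gm15459 (1307 ± 189 CPM, SD, n = 2), Gm10123 (847 ± 216 CPM) and Gm12671 (596 ± 26.6 CPM) lead, and most members below them are copies of ribosomal protein genes.

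The types differed in how much of the annotation reached 3 reads in each library. Members were 124 of 9940 annotated processed pseudogenes (1.25%), 17 of 296 transcribed processed (5.74%), 9 of 253 transcribed unprocessed (3.56%), 7 of 2642 unprocessed (0.265%) and 4 of 82 polymorphic pseudogenes (4.88%). The share was thus higher in the transcribed types than in the type of the same origin that is not annotated as transcribed. The label transcribed itself states transcription at the locus, so this order is not independent of the annotation. Because the type does not enter the read counts but the reads chose the members, these shares are given without a test.

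The 6 members whose closest coding gene was Gapdh had many more reads together than Gapdh itself. Closeness was measured as the best BLAST match of the pseudogene's transcript among protein-coding transcripts. Gm12671 had 476 reads in replicate 1 and 404 in replicate 2, Gm5559 had 236 and 197, and Gm12033 had 137 and 251. Gm7336 had 102 reads in replicate 1 and 68 in replicate 2, Gm13394 had 68 and 55, and Gm10359 had 8 and 8. Together they had 1027 reads in replicate 1 and 983 in replicate 2, against 9 and 13 reads on Gapdh itself. The members' share of these reads was 99.1% (95% interval 98.4 to 99.5%) in replicate 1 and 98.7% (97.8 to 99.2%) in replicate 2. Nearly all reads on Gapdh were spliced, 8 of 9 in replicate 1 and 12 of 13 in replicate 2. Gm12671 and Gm10359 have the same letters over their whole transcripts, identical to Gapdh, and differed 476 to 8 in reads of replicate 1 and 404 to 8 in replicate 2. Of the 173 annotated pseudogenes whose closest coding gene is Gapdh, 15 had any read. Outside the members, 16 of the 173 were at least 99% identical to it, some of them among the 15 with reads.

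For Gm15459 and Gm10123, the chaperone copies with the most reads, the coding gene kept a similar number of reads. Gm15459 had 967 reads in replicate 1 and 946 in replicate 2, against 1038 and 1114 on Hspa8. Gm10123 had 824 reads in replicate 1 and 456 in replicate 2, against 892 and 528 on Ppia. In both libraries each pseudogene was slightly below its coding gene. Gm15459 and Gm10123 had no reads on models of several exons, whereas 1034 of 1038 reads on Hspa8 were spliced in replicate 1 and 1112 of 1114 in replicate 2. The 5 members of the chaperone and proteasome list, which also holds Vcp-rs, Hsp25-ps1 and Gm4118, had 18.7% of the members' reads in replicate 1 and 22.3% in replicate 2. Hsp25-ps1 and Vcp-rs were further below their coding genes. Hsp25-ps1 had 62 reads in replicate 1 and 23 in replicate 2, against 355 and 171 on Hspb1, and Vcp-rs had 25 and 119, against 500 and 490 on Vcp.

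Ribosomal protein copies were the most numerous. The closest coding gene of 66 members (40.2%) was among 49 ribosomal protein genes, and these members had 4554 reads in replicate 1 (45.2% of the members' reads) and 2545 in replicate 2 (36.7%). The list of ribosomal protein genes and the other lists were chosen with earlier results known, and grouping by closest gene was chosen after seeing the data. Rpl3-ps1 led this group at 339 ± 7.38 CPM (SD, n = 2), followed by Gm8172, a copy of Rps6, at 315 ± 76.7 CPM. Rps19-ps6 followed at 308 ± 71.1 CPM, and Gm14303, a copy of Rps29, at 282 ± 90.6 CPM. The differences among these 4 copies were within the spread of Gm8172, Rps19-ps6 and Gm14303 between the libraries. Gm8172 had 304 reads in replicate 1 and 171 in replicate 2, against 298 and 162 on Rps6, and Gm14303 had 285 and 143, against 301 and 138 on Rps29. These 2 copies carried about as many reads as their coding genes.

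Some ribosomal protein genes had fewer reads than their copies. Rpl21-ps15, Gm13370 and Gm10163, the 3 member copies of Rpl21, together had 370 reads in replicate 1 and 183 in replicate 2, against 19 and 9 on Rpl21. The copies of Rpl17 had 114 and 66 reads, against 16 and 11 on Rpl17. The copies of Rpl35a had 361 and 178, against 107 and 64 on Rpl35a. Within the Rpl35a copies, 5 members with the same letters over their whole transcripts differed widely: Gm10243 had 282 reads in replicate 1 and 127 in replicate 2, while Rpl35a-ps2, Rpl35a-ps6, Rpl35a-ps3 and Rpl35a-ps4 had between 4 and 36. By contrast Gm11518 and Rpl27-ps3, also identical to each other, had 89 and 80 reads in replicate 1 and 39 and 31 in replicate 2.

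The smaller groups held metabolic, translation and nuclear genes. The 8 members closest to genes of oxidative phosphorylation had 481 reads in replicate 1 and 214 in replicate 2, led by Gm12338, a copy of the cytochrome c oxidase subunit gene Cox7c, with 167 and 71 reads, against 445 and 182 on Cox7c. Gm10175 and Gm10231, 2 identical copies of the ATP synthase subunit gene Atp5g2, together had 152 reads in replicate 1 and 81 in replicate 2, against 117 and 57 on Atp5g2. Among translation factors, Eif4a-ps4 had 172 reads in replicate 1 and 96 in replicate 2, against 197 and 168 on the RNA helicase gene Eif4a1. Gm12138, a copy of the aldose reductase gene Akr1b3, had 149 and 145 reads, and together with Gm6736 it had 152 and 150, against 143 and 139 on Akr1b3. In the chromatin and nuclear list, Gm5641 had 19 reads in replicate 1 and 20 in replicate 2, against 65 and 51 on the RNA-binding protein gene Hnrnpa3.

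**Figure D2:**
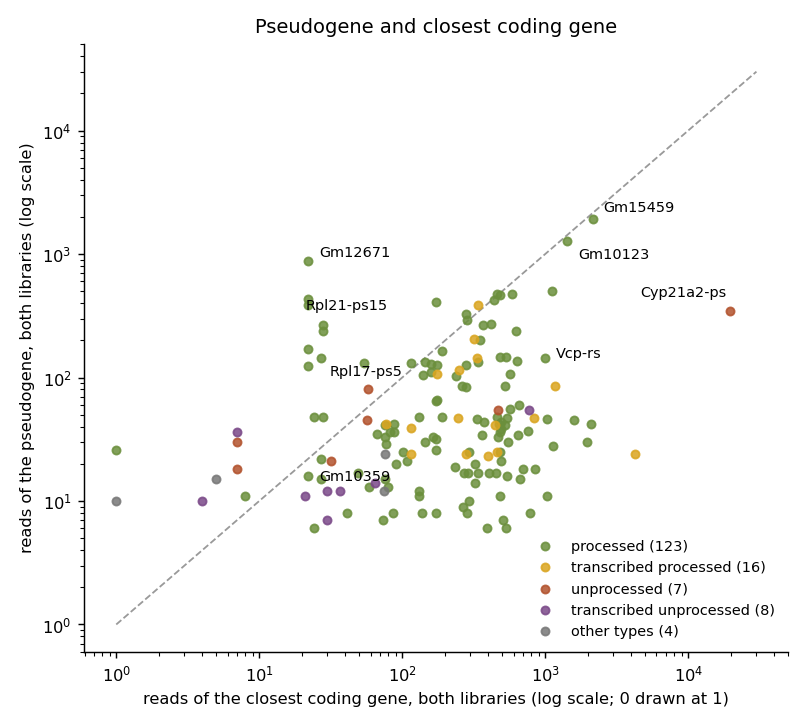
Reads of each matched member (vertical axis) against reads of its closest coding gene (horizontal axis), summed over both libraries on log axes, with 0 drawn at 1. Most of the 158 points lie below the line of equal reads, and the Gapdh copies other than Gm10359 lie above it.

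Over all members the coding gene usually had more reads. A closest coding gene was found for 158 of the 164 members, and the exceptions were Hyi, Ube2d-ps, B330016D10Rik, 2810025M15Rik, H2-Ea-ps and Gm12240. The member had more reads than its closest gene in both libraries for 24 of the 158 and fewer in both for 129. Reads were also summed by coding gene in 119 families, fewer than the 129 different closest genes, so the family counts do not cover every matched member. The median member share was 18.3% of the family's reads in replicate 1 and 16.7% in replicate 2. The members together exceeded the coding gene in both libraries in 14 families and stayed below it in both in 98.

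Members were close copies. The median identity of processed members to the closest gene was 99.764% (121 with at least 90% of the transcript aligned, lowest 97.717%). It was 92.723% over 5724 other processed pseudogenes aligned to the same extent. The shares by identity below also count only processed pseudogenes with at least 90% of the transcript aligned. Over the whole transcript 43 members were identical to a coding transcript, and 29 more differed at exactly 1 base with no gap. Of the 119 processed pseudogenes with identity of 100%, 39 were members (32.8%), and of the 180 between 99.5% and 100%, 50 were (27.8%). The share was 22 of 227 (9.69%) between 99% and 99.5%, 7 of 428 (1.64%) between 98% and 99%, and 3 of 1228 (0.244%) between 95% and 98%. None of the 3663 processed pseudogenes below 95% was a member. The order of the bins was the same where the closest gene had at least 20 reads in each library, from 36 of 85 (42.4%) at 100% to 3 of 857 (0.350%) between 95% and 98% and 0 of 2445 below that. Identity did not enter the choice of members, but the sequence match was added after seeing the data, so no test is given.

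**Figure D3:**
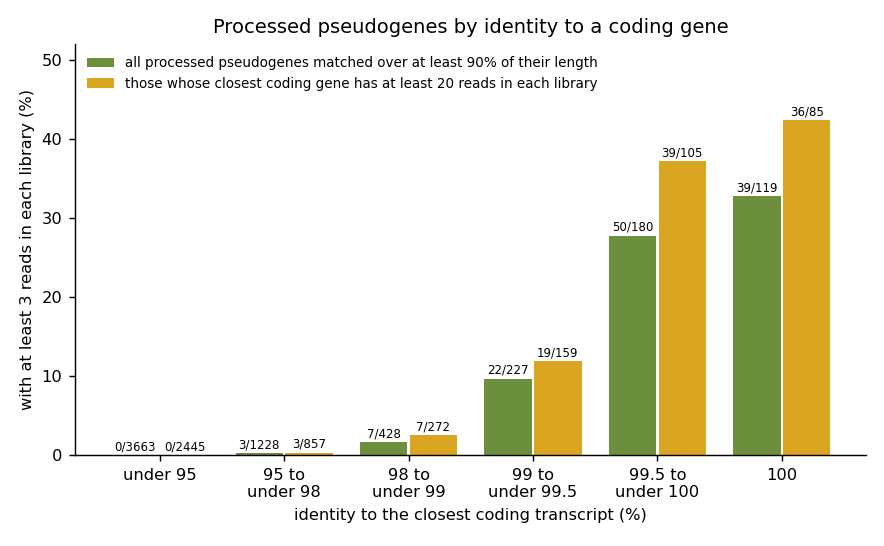
Percent of annotated processed pseudogenes that were members, by identity to the closest coding transcript, for all of them and for those whose closest gene had at least 20 reads in each library. The share is 32.8% at 100% identity, 1.64% between 98% and 99% and 0 below 95%.

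A parent was stated in the name of 49 members, with 41 different parents, and in all 49 it was also the closest coding gene. The pseudogene was above its parent in both libraries in 3 pairs and below it in both in 44. The median ratio of pseudogene to parent reads was 0.206 in replicate 1 and 0.167 in replicate 2, and the mean ratio over libraries ranged from 0.0100 for Atp6v0c-ps2 to 9.77 for Rpl21-ps15. Rpl21-ps15 had 175 reads in replicate 1 and 93 in replicate 2, against 19 and 9 on Rpl21, or 90.2% (85.2 to 93.6%) and 91.2% (84.1 to 95.3%) of the pair. Rpl17-ps5 had 89 and 54 reads, against 16 and 11 on Rpl17, and Rps2-ps13 had 198 and 128, against 160 and 119 on Rps2. These 3 large and small ribosomal subunit copies were the ones above their parents.

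Pairs near or below equality made up the rest. Rps19-ps6 had 295 reads in replicate 1 and 169 in replicate 2, against 334 and 148 on Rps19, so its order against the parent differed between the libraries. Rps13-ps1 had 114 and 51 reads, against 120 and 70 on Rps13, and Rpl3-ps1 had 275 and 226, against 652 and 455 on Rpl3. Among parents outside the ribosome, Gpx4-ps2 had 61 reads in replicate 1 and 24 in replicate 2, against 770 and 404 on Gpx4, the gene of the enzyme that reduces lipid peroxides. Scp2-ps2, a transcribed unprocessed copy, had 40 and 15 reads, against 482 and 289 on the sterol carrier gene Scp2. Cbx3-ps7 had 25 and 23 reads, against 65 and 65 on the heterochromatin protein gene Cbx3, and Morf4l1-ps1 had 21 and 25, against 183 and 149 on the chromatin protein gene Morf4l1.

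The pseudogene's share of its pair was within 5 percentage points between the libraries in 34 of 49 pairs. Pairs with shares under 5% in both libraries could not differ by more. Rpl39-ps, for example, had 1.11% in replicate 1 and 2.36% in replicate 2. Fisher's exact test, two-sided and Benjamini-Hochberg adjusted over 107 annotated pairs, called 2 of the 107 (1.87%), of which 1 was a member pair. Vcp-rs had 25 reads in replicate 1 and 119 in replicate 2, against 500 and 490 on Vcp. Its share of the pair was 4.76% (3.25 to 6.94%) in replicate 1 and 19.5% (16.6 to 22.9%) in replicate 2, with an adjusted exact p of 6.43e-13. Rps27a-ps2 and Rpl10a-ps1 had unadjusted exact p-values of 0.0125 and 0.0218 and did not pass the adjustment, with 0.445 and 0.467. No molecular identifiers were used, so these intervals express counting error and nothing else.

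**Figure D4:**
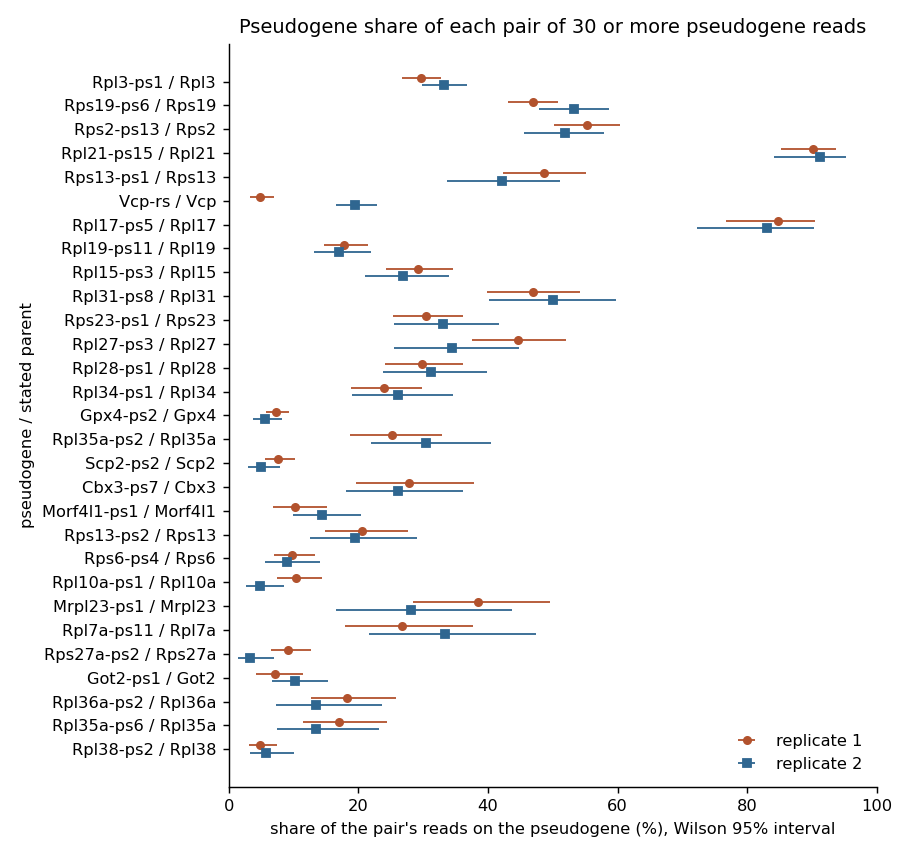
Pseudogene share of the reads of each stated pair with at least 30 summed pseudogene reads, in percent, with a point and a Wilson 95% interval for each library. Rpl21-ps15 and Rpl17-ps5 lie above 80%, and the Vcp-rs points, at 4.76% in replicate 1 and 19.5% in replicate 2, have intervals that do not overlap.

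Splicing set the types apart. Of the members' reads, 97.2% in replicate 1 and 94.4% in replicate 2 lay on models of a single exon, against 2.25% and 1.57% for the stated parents and 9.29% and 7.38% for all genes. The share was 99.8% and 99.7% for processed members and 95.9% and 95.1% for transcribed processed members. For the 21 unprocessed, unitary and polymorphic members it was 43.6% and 23.3%. This pooled share mixes unlike members. Cyp21a2-ps alone had 123 of their 233 spliced reads in replicate 1 and 220 of 348 in replicate 2. Gm10925, Gm28437, Gm28661, Gm29216 and Scp2-ps2 had no spliced reads. The annotation gives an intron to 26 of the 164 members and none to 138.

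Cyp21a2-ps had more spliced reads than any other member. It had 123 reads in replicate 1 and 220 in replicate 2, all 343 on models of several exons, against 9183 and 10461 on Cyp21a1. Its best local match to Cyp21a1 had 97.377% identity, with 30 mismatches and 1 gap base over 1182 aligned bases. This match left out part of the 1383-base transcript, including C73T and C92T, so the identity describes the aligned part only. Its annotated model received 33 and 61 of these reads, and most others fell on models that join known splice sites in new combinations, with 59 reads in replicate 1 and 133 in replicate 2. An exon of Tnxb lies opposite to it, and Tnxb as a whole gene had 1 read in each library. The unprocessed members Gm21811 and Gm21092 and the transcribed unprocessed member 2610005L07Rik, whose closest coding gene is the cadherin gene Cdh11, had together 39 reads in replicate 1 and 45 in replicate 2, against 5 and 2 on Cdh11, and 28 of 30, 16 of 18 and 29 of 36 of their own reads were spliced.

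The polymorphic, unitary and some transcribed unprocessed members had few reads, mostly spliced. Hyi, named for hydroxypyruvate isomerase, had 17 reads in each library, and 33 of the 34 were spliced. H2-Ea-ps, of the class II histocompatibility genes, had 6 reads in replicate 1 and 8 in replicate 2, H2-T10 had 3 and 9, and Mx2, an interferon-induced GTPase gene, had 4 and 6, all on models of several exons. Ube2d-ps had 18 and 14 reads, of which 31 of 32 were spliced, and the unitary Thap6 had 7 and 8. By contrast the transcribed processed members were mostly unspliced, and Rpl37rt, the highest transcribed processed member at 256 ± 32.6 CPM (SD, n = 2), had 230 and 153 reads, against 222 and 115 on Rpl37. The next in that type was Gm15500, a copy of Rpl5, at 133 ± 53.1 CPM. Ppp1ccb, a copy of the phosphatase gene Ppp1cc in the same type, had 19 of its 115 reads spliced.

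The 4 remaining unprocessed members lie together on chromosome 1, between 24613189 and 24616197, and match mitochondrial genes. Gm10925 had 51 reads in replicate 1 and 30 in replicate 2, against 39 and 19 on mt-Atp6, and Gm28437 had 27 and 18, against 37 and 20 on mt-Co3. Gm28661 had 10 and 11, against 18 and 14 on mt-Co2, and Gm29216 had 36 and 19, against 315 and 155 on mt-Co1. Gm10925 was thus above its mitochondrial counterpart in both libraries and the other 3 below theirs.

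A larger share of members than of other pseudogenes overlapped another annotated gene, and no test is given. Of the 164 members, 96 (58.5%) overlapped no other annotated gene, against 9865 of the other pseudogenes (73.8%). An exon on the opposite strand overlapped 18 members (11.0%, against 2.78% of the others), an intron on the opposite strand 28 (17.1%, against 12.7%), an intron on the same strand 16 (9.76%, against 8.68%) and an exon on the same strand 6 (3.66%, against 2.00%). For the highest of those with an opposite exon, Gm15459, the partner Gm26825 had 0 reads in both libraries, which allows up to 3.64 CPM in replicate 1 and 4.57 CPM in replicate 2.

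Between the libraries, members as a whole were higher in replicate 1. The median log2 ratio of replicate 1 over replicate 2, of CPM scaled by the trimmed mean of M-values (TMM) with 1 added, was 0.59 over the 116 members with at least 20 summed reads, against −0.01 over 8063 genes. It was positive in 94 of the 116 and negative in 22. Length was taken from the annotated transcript model with the most reads. Genes with a length under 1000 bases had a median of 0.63 (758 genes), and most of the 116 members were that short. In the bin under 500 bases the median was 0.68 for 47 members and 0.76 for 76 other genes, between 500 and 750 bases it was 0.73 for 22 members and 0.69 for the other genes, and between 750 and 1000 bases it was 0.46 for 20 members and 0.55 for 358 others. The closest coding genes had a median of 0.52 (123 tested). The sum over adipocyte markers and over hemoglobin genes, given above, was also higher in replicate 1, and its part in the members' ratios was not tested. In bulk tissue, fewer cells of a type and less RNA per cell cannot be told apart.

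The exact binomial test, two-sided, adjusted over all 8063 genes and with a change of at least 2-fold, called 10 members higher in replicate 1, 8.62% of those tested against 2.36% of all genes, and 4 higher in replicate 2, 3.45% against 1.05%. With libraries scaled by their totals, which lowers every log2 ratio by 0.10, the members split into 6 and 4, and all genes into 131 and 128 instead of 190 and 85. With the trend of the ratio on transcript length removed, no member was called higher in replicate 1 (4 had an unadjusted p under 0.05), and the 4 higher in replicate 2 were called again.

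Of the 10 members called higher in replicate 1, 5 were ribosomal protein copies, as were 55 of the 116 tested. Gm6969, a copy of the respiratory supercomplex gene Cox7a2l, had 27 reads in replicate 1 and 3 in replicate 2, a log2 ratio of 2.69 (adjusted exact p of 6.41e-04), against 0.69 for Cox7a2l. Rps27a-ps2, at 32 and 6 reads, had a log2 ratio of 2.07 (adjusted exact p of 0.00218), against 0.61 for Rps27a. With the length trend removed, their log2 ratios were 1.82 for Gm6969 (adjusted exact p of 0.117) and 1.29 for Rps27a-ps2 (adjusted exact p of 0.215). Among the others were Rpl10a-ps1, Hsp25-ps1, a copy of the small heat shock gene Hspb1, Gm12191, Rpl27-ps3, Gpx4-ps2, Gm12481, a copy of Serf2, and Gm12338, and the log2 ratios of these 7 lay between 1.00 and 1.39.

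The 4 members called higher in replicate 2 were called again under each alternative tried. Gm10774 had 6 reads in replicate 1 and 35 in replicate 2, a log2 ratio of −2.62 (adjusted exact p of 9.33e-06), whereas its closest gene Polr2l, for a subunit shared by RNA polymerases, had 357 and 164. Gm10774 shares an exon on the same strand with Usp50, which had 155 and 33 reads. Vcp-rs had a log2 ratio of −2.44 (adjusted exact p of 2.02e-17), against −0.20 for Vcp. Gm12033, the Gapdh copy with T504C, had a log2 ratio of −1.10 (adjusted exact p of 1.34e-11), whereas Gm12671 had 0.01 and Gm5559 0.03. Cyp21a2-ps had a log2 ratio of −1.06 (adjusted exact p of 1.43e-09), against −0.41 for Cyp21a1.

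**Figure D5:**
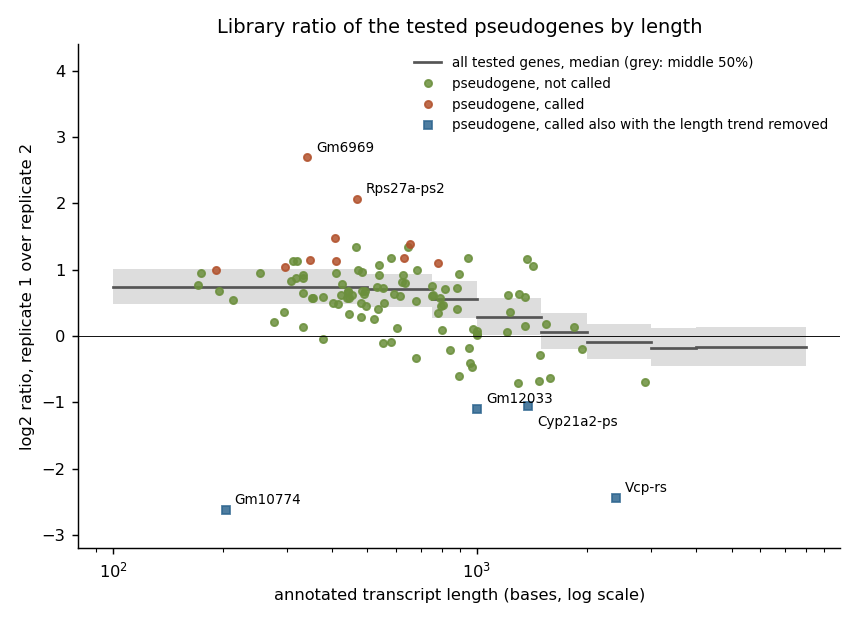
Log2 ratio of replicate 1 over replicate 2 against annotated transcript length in bases (log axis), for tested members (points, without 5 that have no length value) and for all tested genes (lines are medians by length bin, grey the middle 50%). The medians of short genes and most short members lie above 0, and Vcp-rs, Gm10774, Gm12033 and Cyp21a2-ps lie below the grey band.

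At the edge of the choice the values were small. Gm7331, Gm8783 and Rpl39-ps entered with 3 reads in each library. Just outside were Rab11b-ps2, with 2 reads in replicate 1 and 11 in replicate 2, and Gm10108, with 10 and 2. In the lower of the libraries 19 members had exactly 3 reads, and 56 pseudogenes had exactly 2 and were not members.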

How the data were processed

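Long-read RNA-seq libraries of mouse adrenal gland were deposited as read counts per transcript model, which the authors made with TALON (named in the deposited annotation) on mm10 with GENCODE M21, per the deposited notes. The sources used here name no aligner and no versions. Deposited counts were summed per gene, and spike-in rows were left out. Totals were 824225 reads in replicate 1 and 656826 in replicate 2. The limit for a gene with 0 reads is 3 reads, equal to 3.64 CPM in replicate 1 and 4.57 CPM in replicate 2.

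Because there is 1 group of 2 libraries, edgeR's quasi-likelihood test could not be fitted. Instead each gene with at least 20 summed reads was tested by a two-sided exact binomial test on TMM-scaled totals (edgeR 4.0.16, R 4.3.3, scipy 1.17.1), with Benjamini-Hochberg adjustment over all genes. Genes with an adjusted p under 0.05 and a change of at least 2-fold in CPM plus 1 were called. Pairs with a pseudogene read and at least 20 reads were tested by Fisher's exact test. The procedures were tested on simulated data. Closest coding genes came from BLAST 2.17.0 against M21 coding transcripts, a step added after seeing the data.

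The members and gene lists were chosen with earlier results of these data known. Named genes are the highest members overall and by type, stated pairs by level, called members and pairs, the most spliced members, up to 4 of each gene list, their parents, and those at the threshold. Some items that this rule names are left out of the text. The 6 Gapdh copies, the mitochondrial matches, the identical copies and the families where copies exceed the coding gene were named after their values were seen. Alternatives were DESeq2 1.42.0 size factors, library totals, other read minimums, other model classes, a length trend and each library left out.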

Additional observations from a re-analysis of the deposited data

Results flagged for a closer look

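Mpc1-ps, a processed copy of the mitochondrial pyruvate carrier gene Mpc1 and no member, had 0 reads in replicate 1 and 57 in replicate 2, whereas Mpc1 had 203 and 97. It drew attention as a signal in a pseudogene that the rule for members leaves out, above the 3 reads that a count of 0 allows in the other library. Its reads did meet the minimum of the tests over all genes and over all annotated pairs. Its identity to Mpc1 was 99.697%. A group of 2 libraries is too small for a test of outlying samples.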

How the results depend on the processing

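No paired analysis was possible because there is 1 group. Of the 14 called members, all were called with DESeq2 size factors and without reads on genomic models, 13 without the minimum of 20 reads (Rpl10a-ps1 was lost), 10 with library totals and 4 with the length trend removed. Library totals gave 128 genes higher in replicate 2 and 6 members higher in replicate 1. Removal of the length trend gave 132 called genes, 75 of them higher in replicate 1, 0 members higher in replicate 1, a member median of −0.10 and −0.025 for Gm12338, where the ratios fell because the trend itself was subtracted. The called pairs were 2 under each alternative, with 1 member pair. With 10 reads in each library 97 pseudogenes qualified. The members' share was 1.43% over Known models, the median member had 100% of its reads on single-exon models (pooled mean 95.8%), 31.1% of members overlapped a protein-coding gene (any gene 41.5%), and 42.4% of identical processed pseudogenes were members where the closest gene had 20 reads in each library. Leaving out a library gave 192 to 229 members, a median pair ratio of 0.167 to 0.206, a share of 1.06 to 1.22% and single-exon shares of 94.4 to 97.2%. Members under 20 summed reads, 48 of 164, were not tested, and their levels rest on few reads. Whether reads at identical loci come from those loci was not tested.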

Other observations

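RefSeq entries were found for 149 of the 164 members. RefSeq called 123 of them pseudogene and 18 transcribed pseudogene. It called 4 lncRNA, which were Ube2d-ps, B330016D10Rik, 2810025M15Rik and 2810047C21Rik1. A further 4 were protein-coding in RefSeq, among them Rpl37rt, Ppp1ccb and Rpl34-ps1. The X chromosome held 14 members (8.54%), close to its 8.27% of all annotated pseudogenes.

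Models on the strand opposite to a member, new in the deposited annotation, were found at 12 members, with 33 reads in replicate 1 and 39 in replicate 2 in all. Gm15801 and Gm8783, identical to each other over their whole transcripts and to the phosphatase gene Ptp4a1, had most of them. At Gm15801 there were 13 and 9 opposite reads, against 85 and 61 reads on the pseudogene itself. At Gm8783 there were 10 and 10 opposite reads, against 3 and 3 on the pseudogene, so the opposite reads outnumbered the pseudogene's own at this locus.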
